A study of Mus musculus with 18 samples.

Results

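The heat shock proteins described here are the chaperones that the heat shock factor HSF1 raises when proteins misfold in the cytosol. The set holds 10 genes, listed by symbol: Hsp90aa1 and Hsp90ab1 (the cytosolic HSP90s), Hspa8, Hspa1a and Hspa1b (cytosolic HSP70s), Hsph1, Dnajb1 and Bag3 (partners of HSP70), and Hspd1 and Hspe1 (the HSP60 chaperonin and its HSP10 lid). They are 10 of the 40800 gene identifiers in the count table. Of the 10, 8 passed the filter on low counts and were tested, and Hspa1a and Hspa1b did not. The set is usually called cytosolic, but the proteins of Hspd1 and Hspe1 work in mitochondria.

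The question of the study was how gene expression in the lens changes when an alpha-crystallin carries a cataract mutation. Whole lenses of C57BL/6J mice were collected at 2 days of age from Cryaa-WT mice and from knock-in mice with 1 (Cryaa-R49C-het) or both (Cryaa-R49C-homo) copies of the R49C mutation of Cryaa. At 14 days they were collected from Cryab-WT mice and from mice with 1 (Cryab-R120G-het) or both (Cryab-R120G-homo) copies of the R120G mutation of Cryab. RNA of several lenses was pooled for each library, and each of the 6 groups has 3 libraries, which the study describes as biological replicates. A knock-in changes the protein in every cell that uses the gene, and lens RNA mixes fibre and epithelial cells, so that fewer cells of a type and less RNA per cell cannot be told apart. The mutated gene and the age change together between the lines. The titles of the 6 Cryab mutant libraries name R120G, but their genotype field names R49C of Cryaa. The titles were followed here.

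In an unstressed cell, HSP70 and HSP90 proteins keep HSF1 inactive, and unfolded proteins that occupy these chaperones release it. HSF1 then forms trimers and binds heat shock elements, which are inverted repeats of the bases GAA, in front of chaperone genes. J proteins such as DNAJB1 deliver unfolded clients to HSP70, the HSP110 protein HSPH1 and BAG3 help HSP70 release its nucleotide, and HSP90 finishes the folding of many signalling proteins. The lens is particular in that its fibre cells keep their proteins for life, in that alpha-crystallins are themselves small heat shock proteins, and in that HSF4 is its main heat shock factor after birth.

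The libraries held 14272174 to 29639719 counts. Values are given as counts-per-million (CPM) after scaling by the trimmed mean of M values (TMM), with factors of 1.20 to 2.27 for the 2-day libraries and 0.488 to 0.774 for the 14-day libraries. Summed over 11 lens fibre markers, the libraries had 58368 to 234057 CPM at 2 days and 525702 to 722742 CPM at 14 days, and 1 of these markers, Lim2, had 0 counts in all 18 libraries. The fibre markers include other crystallin genes and the mutated genes Cryaa and Cryab, so their sums also follow the mutated transcripts. The locus Gm42418, which contains ribosomal RNA sequence, took 2.53 to 42.6% of the counts of the Cryaa line, and these extremes were both in Cryaa-R49C-homo libraries (replicates 1 and 3). Cryab-WT replicate 1 stood apart: its 15 immediate-early genes summed to 2131 CPM, against 28.2 to 96.3 CPM in the other 17 libraries.

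The sequences of the members bear on which of them reads of 50 bases can measure. Hspa1a and Hspa1b lie near each other on chromosome 17 and are identical at 1915 of 1923 aligned coding bases (99.6%). Of the 50-base windows of the Hspa1a transcript, 66.3% also occur in another gene, and for Hspa1b the share is 62.3%. A stretch of 60 coding bases, from base 1357 to 1416 of each coding sequence, shows how few bases can assign a read to 1 of the pair. Capitals mark the 2 bases that differ within it.
Hspa1a: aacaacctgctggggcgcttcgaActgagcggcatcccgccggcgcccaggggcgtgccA
Hspa1b: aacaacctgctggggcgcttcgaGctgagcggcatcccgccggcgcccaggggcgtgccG
Only reads that are unambiguous were counted, so the levels of members with copies elsewhere can be too low. The shared part was 74.8% for Hspa8 (Gm15459, which itself had 0 counts in every library, holds 70% of its windows), 58.5% for Hsp90aa1, and 44.8% for each of Hspd1 and Hspe1. It was 4.49% for Hsp90ab1, 0.441% for Dnajb1 and 0% for Hsph1 and Bag3. Levels are therefore compared between libraries more firmly than between genes. Hspd1 and Hspe1 lie head to head on chromosome 1 with 112 bases of exon in common on opposite strands, and a read from these bases cannot be placed without strand.

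Promoters, here the 250 bases before and 50 after a transcription start in RefSeq (GRCm38.p6), were found for 7 members in 10 windows, and none was given for Hspa8, Hsp90aa1 or Hsp90ab1. They were searched on both strands for a heat shock element of 3 units (GAANNTTCNNGAA or TTCNNGAANNTTC) and for its parts of 2 units (GAANNTTC and TTCNNGAA), which overlap the longer motif. The 3-unit element was present for 3 members (Hspd1, Hspe1 and Hsph1) and in 0.603% of 32851 promoters. The letters GAANNTTC were found for 6 of the 7 members and in 7.86% of promoters, and TTCNNGAA for 3 members and in 8.52%. A member counts if any of its windows holds the letters, while the shares are of single windows. The windows of Hspd1 and Hspe1 overlap, and the letters found in both are the same stretch of DNA read from opposite strands, so each of these counts of members holds it for both genes. Hspa1a and Hspa1b have windows of nearly the same sequence, with GAAGATTC at the same distance from the start, and GAANNTTC is counted for both. CCAAT was present for 5 members against 37.4% of promoters, and TATAAA for 0 members against 13.6%. The windows of 3 members are shown because they differ in these letters: Hspe1 with the 3-unit element, Hspa1a with 1 pair of units, and Dnajb1, the member with the largest change in the Cryaa line, with neither. Capitals mark heat shock element letters, and each window is written 5′ to 3′ on the strand of the gene.
Hspe1, chr1:55087898-55088197 (+): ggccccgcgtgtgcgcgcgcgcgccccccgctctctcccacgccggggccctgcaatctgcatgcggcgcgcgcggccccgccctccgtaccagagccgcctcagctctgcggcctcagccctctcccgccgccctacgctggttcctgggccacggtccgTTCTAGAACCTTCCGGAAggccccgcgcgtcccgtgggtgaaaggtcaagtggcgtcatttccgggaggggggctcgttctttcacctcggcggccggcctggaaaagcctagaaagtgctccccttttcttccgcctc
Hspa1a, chr17:34972107-34972406 (-): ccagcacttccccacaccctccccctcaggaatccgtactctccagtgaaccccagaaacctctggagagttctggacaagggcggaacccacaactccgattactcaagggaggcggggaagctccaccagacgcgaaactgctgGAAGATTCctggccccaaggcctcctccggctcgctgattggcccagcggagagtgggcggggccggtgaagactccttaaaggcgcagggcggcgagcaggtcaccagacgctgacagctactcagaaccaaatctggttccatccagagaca
Dnajb1, chr8:83607925-83608224 (+): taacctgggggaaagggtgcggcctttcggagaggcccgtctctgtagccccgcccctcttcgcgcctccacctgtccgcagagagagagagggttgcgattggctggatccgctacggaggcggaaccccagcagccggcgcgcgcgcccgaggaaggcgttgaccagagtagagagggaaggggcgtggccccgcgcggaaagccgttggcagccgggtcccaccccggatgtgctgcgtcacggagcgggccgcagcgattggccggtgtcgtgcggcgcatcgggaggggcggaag
In Hspe1 the marked letters run from 89 to 72 bases before the start. Absence of the letters from a window says nothing about binding elsewhere.

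Among the members, Hsp90ab1 was the most abundant in every group. Per kilobase of the merged annotated exons of a gene, it had 188 CPM in Cryaa-WT lenses, followed by Dnajb1 (40.3), Hspa8 (21.4) and Hspe1 (15.5). Hspd1 (8.14) and Hsp90aa1 (7.47) came next with overlapping libraries, and Hsph1 (0.819) and Bag3 (0.622) were far lower. In Cryab-WT lenses the first 4 places were the same, with 325 CPM per kilobase for Hsp90ab1, 116 for Dnajb1, 45.2 for Hspa8 and 34.8 for Hspe1, of which the last 2 overlapped. In Cryaa-R49C-homo, Dnajb1 was in the fourth place (11.1 CPM per kilobase, overlapping Hspe1 and Hspd1). Hspa8 was in the fourth place in Cryab-R120G-het (32.0 CPM per kilobase, overlapping Hspe1 at 38.6) and in Cryab-R120G-homo (12.6 CPM per kilobase, overlapping Hspd1). The merged exons are longer than the longest protein-coding transcript for some genes (4301 against 2394 bases for Hspa8, 1474 against 774 for Hspe1). The order below Hsp90ab1 can therefore depend on the length used.

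**Figure D1:**
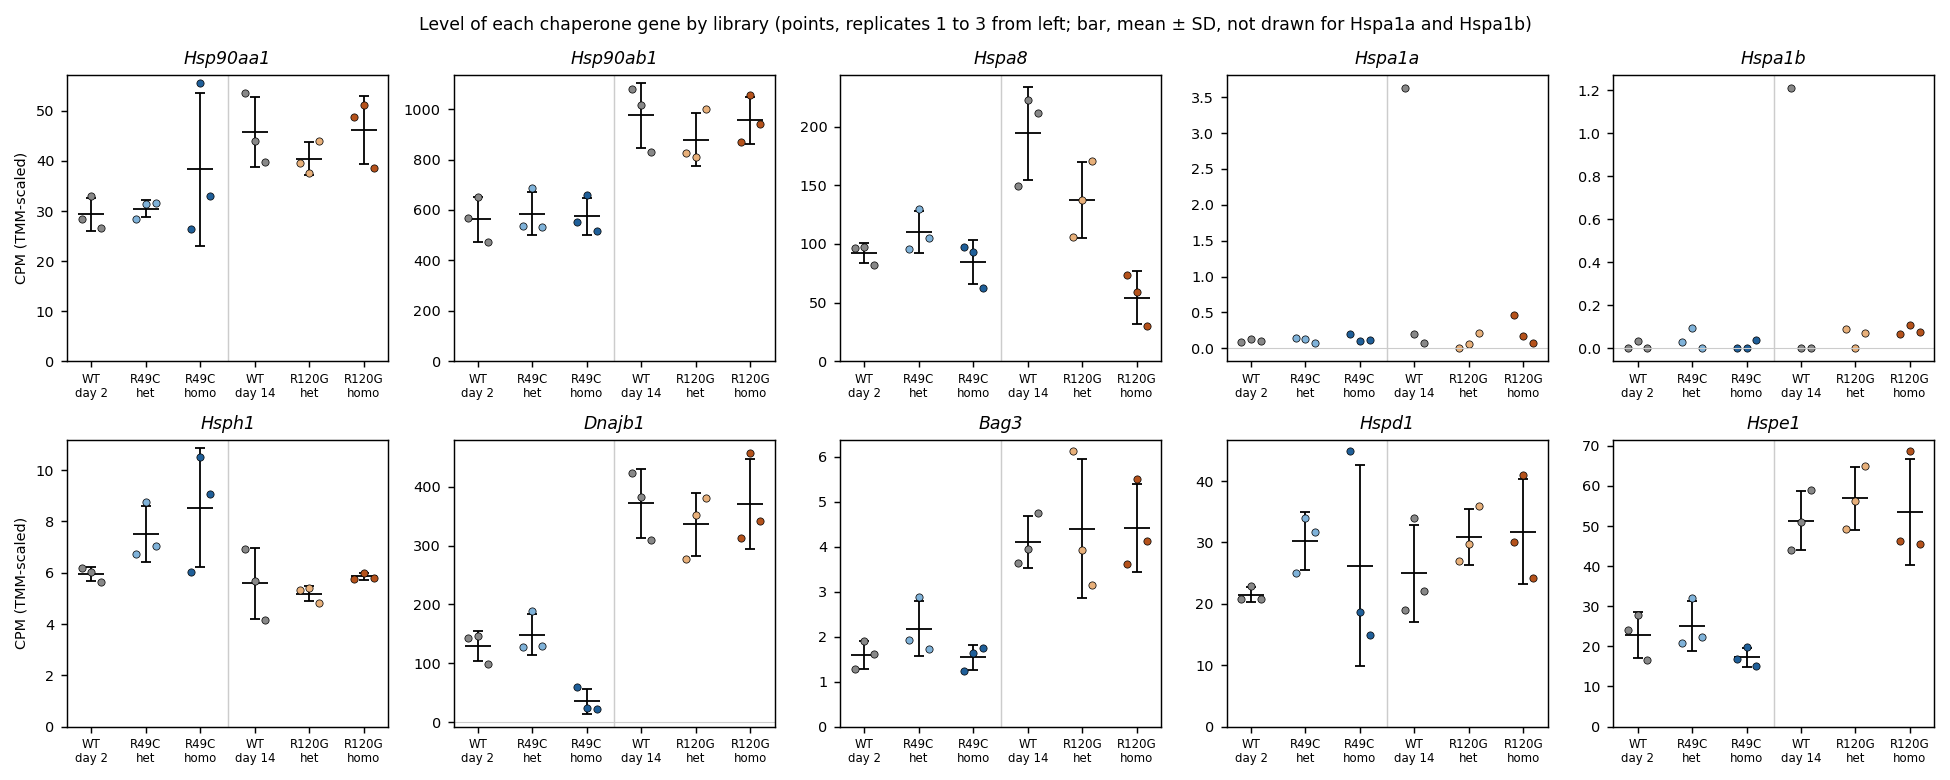
Level of each of the 10 members in CPM (y axis, TMM-scaled, each panel with its own range) in the 6 groups (x axis; WT day 2 is Cryaa-WT and WT day 14 is Cryab-WT). Points are libraries and bars the mean ± SD of 3, not drawn for Hspa1a and Hspa1b, which had few counts; Dnajb1 lay between 22.3 and 59.8 CPM in Cryaa-R49C-homo and Hspa8 between 29.9 and 73.9 CPM in Cryab-R120G-homo, each below all libraries of its WT group.

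In Cryaa-R49C-homo lenses, 1 member was called against WT, and it was lower. Dnajb1 (ENSMUSG00000005483, GRCm38 chromosome 8, 83608193 to 83612653, plus strand) encodes the J protein that stimulates the ATPase of HSP70. It was at 143, 146 and 99.5 CPM in the Cryaa-WT libraries and at 128, 188 and 129 CPM in the heterozygous ones. In Cryaa-R49C-homo it was at 59.8, 24.9 and 22.3 CPM. All 3 homozygous libraries were below all 6 others of the line, and the difference from WT was 3.62-fold (log2 fold change -1.86, SE 0.31, 95% interval -2.50 to -1.21, edgeR FDR = 0.000346). Against the heterozygous lenses Dnajb1 was 4.16-fold lower (log2 fold change -2.06, SE 0.31, FDR = 0.000165). Among all genes tested, 9.79% passed the threshold in the comparison with WT (4.87% higher and 4.91% lower) and 8.32% in the comparison with the heterozygous lenses (4.69% higher and 3.63% lower). Groups did not overlap for 24.5% of genes against WT and 22% against the heterozygous lenses. The fall of Dnajb1 from WT was called under each of 13 alternative fits, with log2 fold changes of -2.45 to -1.33.

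The homozygous library with the highest Dnajb1, replicate 1, was also the one with the lowest Gm42418 share (2.53% against 24.5 and 42.6%) and the highest fibre marker sum (168820 CPM against 80993 and 58368 CPM). In Cryaa-WT the fibre marker sum was 139040 to 206369 CPM, and 3 of the 10 fibre markers tested were called lower in the homozygous lenses and 0 higher. Without replicate 1, the log2 fold change of Dnajb1 from WT was -2.45. Macrophage markers, of which 2 of 9 were called higher and none was at 0 counts in this line, summed to 17.6 to 35.3 CPM in the homozygous libraries against 7.09 to 16.9 CPM in WT. Lens epithelium markers (1 of 5 called lower, none at 0 counts) summed to 70.2 to 78.1 CPM against 86.5 to 110.9 CPM in WT. Pigment epithelium and melanocyte markers (2 of 9 tested called lower, 0 to 2 of 10 at 0 counts) summed to 15.1 to 19.4 CPM against 24.9 to 47.5 CPM. These last 3 sums did not overlap between the groups, and the fibre sums did. Immediate-early sums were also apart (63.1 to 81.7 CPM against 32.6 to 53.2 CPM in WT), with 0 of 12 tested genes called. Sums of vessel and mesenchyme markers (1 of 9 higher, 1 lower), photoreceptor markers (0 of 10 called) and erythrocyte markers (0 of 5 tested called) overlapped between the groups. The part of these differences in the result for Dnajb1 was not tested.

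The other 7 tested members were not called in the homozygous lenses. Hsph1, which encodes the HSP110 nucleotide exchange factor, was at 6.18, 6.04 and 5.64 CPM in WT and at 6.01, 10.5 and 9.09 CPM in Cryaa-R49C-homo (log2 fold change 0.52, SE 0.22, FDR = 0.150). Hsp90aa1, the inducible HSP90, was at 28.5, 33.0 and 26.7 CPM in WT and at 26.4, 55.6 and 32.9 CPM in the homozygous lenses (0.38, SE 0.23, FDR = 0.331). In homozygous replicate 1 neither gene was above the WT range, while replicate 2 was above it for both genes and replicate 3 for Hsph1. Without homozygous replicate 1, Hsph1 (0.72, FDR = 0.0128) and Hsp90aa1 (0.59, FDR = 0.0370) passed the threshold as higher, which made 3 members called against WT. Calls over all 13938 genes also grew in that fit, to 3085 from 1364.

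Hsp90ab1, Hspa8 and Bag3 were near their WT levels. Hsp90ab1 was at 567, 650 and 472 CPM in WT and 551, 658 and 515 CPM in the homozygous lenses, a log2 fold change of 0.03 with a 95% interval of -0.40 to 0.46. Hspa8, the cognate HSP70, was at 96.8, 97.6 and 82.3 CPM and at 97.5, 92.9 and 62.9 CPM (-0.13, interval -0.70 to 0.44). Bag3, the exchange factor that leads clients to autophagy, was at 1.28 to 1.89 CPM and 1.23 to 1.75 CPM (-0.06, SE 0.30). For each of these genes the homozygous and WT libraries overlapped.

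Neither mitochondrial chaperonin gene was called, and the pair parted in homozygous replicate 1. Hspd1 was at 20.7, 23.0 and 20.8 CPM in Cryaa-WT and at 45.0, 18.6 and 14.9 CPM in Cryaa-R49C-homo, so that homozygous replicate 1 was above and the others below all WT libraries (log2 fold change 0.29, SE 0.31, FDR = 0.638). Hspe1 was at 24.0, 27.9 and 16.7 CPM and at 17.0, 19.7 and 15.1 CPM (-0.40, SE 0.24, FDR = 0.319). The count ratio of Hspd1 to Hspe1 was 2.65 in replicate 1 and 0.943 and 0.987 in the other homozygous libraries, against 0.822 to 1.25 in WT. Without replicate 1, Hspd1 was called lower than in the heterozygous lenses (log2 fold change -0.85, FDR = 0.00971), as one of 3 members called there. Calls over all 13938 genes grew in that fit to 4102 from 1160.

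In Cryaa-R49C-het lenses, with 1 mutated copy, none of the 8 tested members passed the threshold (edgeR), and 0.00717% of all genes did. None had an unadjusted p under 0.05, and no member was called under DESeq2 or any other alternative. All 8 log2 fold changes were positive, from 0.05 for Hsp90aa1 to 0.49 for Hspd1, with a median of 0.23 against -0.01 over all genes. With single libraries left out, the lowest values were negative for Hsp90aa1 (-0.01), Hsp90ab1 (-0.07), Dnajb1 (-0.01) and Hspe1 (-0.09). The other tested members stayed positive. Hspd1 was at 25.0, 34.1 and 31.6 CPM (log2 fold change SE 0.31, FDR = 0.836) and Hsph1 at 6.73, 8.76 and 7.03 CPM (0.33, SE 0.22, FDR = 0.836), and these were the 2 members whose heterozygous libraries were all above WT. Over all genes, 21.9% did not overlap between these groups. In Cryaa-R49C-homo the median over the members was -0.02 against 0.00 over all genes.

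**Figure D2:**
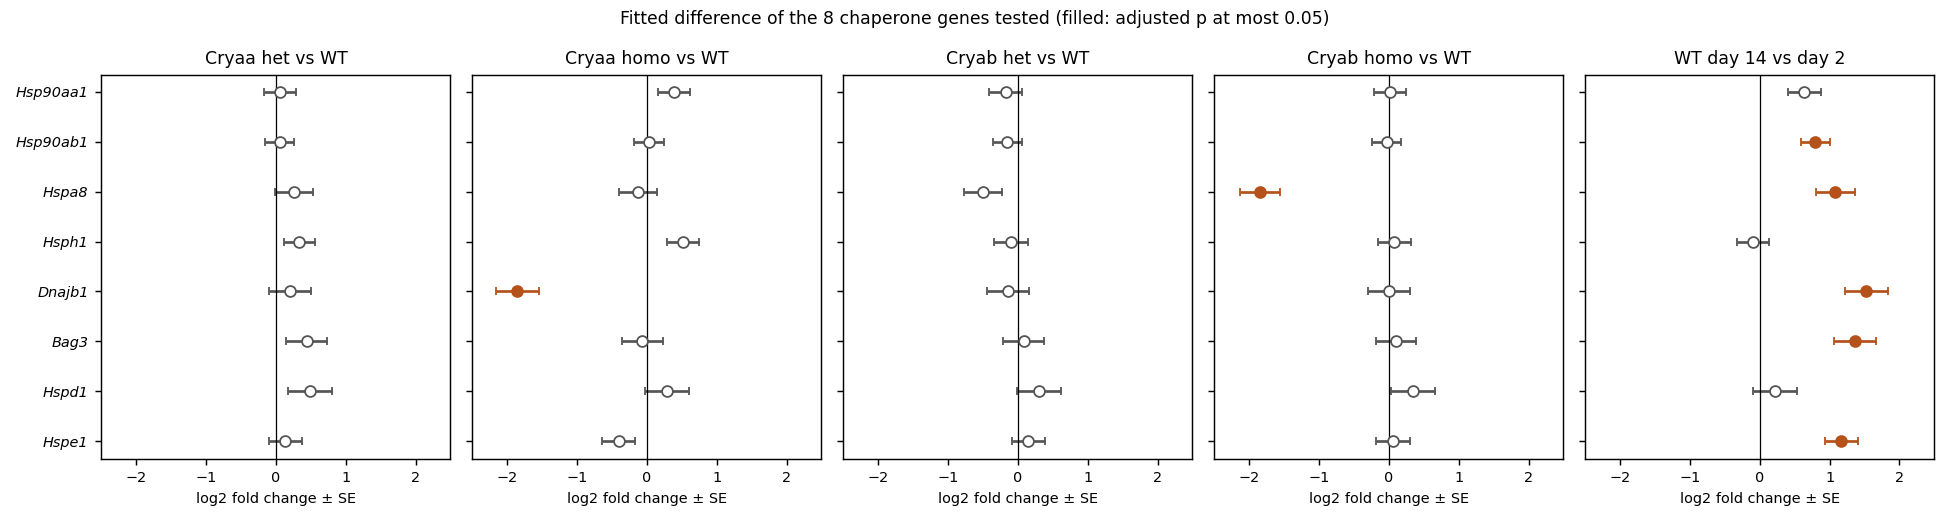
Fitted log2 fold change ± SE (x axis) of the 8 tested members (rows) in 5 comparisons (panels), with filled points for those at an adjusted p of at most 0.05. In the comparisons of mutant with WT lenses 1 point is filled for each homozygous group, Dnajb1 at -1.86 and Hspa8 at -1.84, and none for the heterozygous groups; in the panel of the WT groups 5 are filled.

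In Cryab-R120G-homo lenses, again 1 member was called against WT, and it was Hspa8. Hspa8 (ENSMUSG00000015656, GRCm38 chromosome 9, 40800984 to 40810087, plus strand) encodes the constitutive HSP70 that folds new proteins and strips clathrin from vesicles. It was at 149, 222 and 212 CPM in Cryab-WT libraries, at 106, 137 and 170 CPM in Cryab-R120G-het and at 73.9, 58.9 and 29.9 CPM in Cryab-R120G-homo. All homozygous libraries were below all others of the line, while WT and heterozygous libraries overlapped. The level was 3.58-fold lower than in WT (log2 fold change -1.84, SE 0.29, 95% interval -2.43 to -1.25, edgeR FDR = 0.0074). Few genes were called in this comparison, 0.0502% of those tested, with 0.0287% higher and 0.0215% lower. Groups that did not overlap were more frequent, at 9% of all genes.

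The call on Hspa8 depended on single libraries and on the scaling, while its direction did not. It was lost without Cryab-WT replicate 2 (FDR = 0.0729) or 3 (FDR = 0.05001, just above the threshold) and without Cryab-R120G-homo replicate 2 (FDR = 0.0703) or 3 (FDR = 0.0581). It was also lost when libraries were scaled by their totals alone (log2 fold change -1.43, FDR = 0.234) and in a fit of the Cryab line alone (-1.81, FDR = 0.387). It was held by DESeq2 (-1.82, FDR = 7.18e-07) and with the replicate number as a block (-1.84, FDR = 0.0136), a fit in which 18 genes in place of 7 passed. Over the 13 alternative fits its log2 fold change was -2.13 to -1.43, with 7 calls. Hspa8 lies 9.94 Mb from Cryab on chromosome 9, and the genotype of that interval was not examined.

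Photoreceptor markers summed to 231 to 1330 CPM in the Cryab-R120G-homo libraries, to 108 to 679 CPM in the heterozygous and to 26.0 to 905 CPM in the WT ones, with none of the 10 genes at 0 counts and 0 called. The library with the highest sum had the lowest Hspa8 of its group in Cryab-WT and the highest Hspa8 of its group in Cryab-R120G-homo (replicate 1 in each). Pigment epithelium and melanocyte markers did not overlap with WT: they summed to 23.5 to 61.8 CPM in the homozygous and 22.6 to 73.6 CPM in the heterozygous libraries against 8.87 to 21.9 CPM in WT, with 0 of 9 tested called, a median log2 fold change of 1.84 in the homozygous lenses, and 0 to 2 of 10 at 0 counts in a library. The fibre marker sums were 679962 to 722742 CPM in WT and 525702 to 712010 CPM in the homozygous lenses. Macrophage markers had a median log2 fold change of 1.82 with 0 of 9 called, and summed to 1.99 to 4.46 CPM in the homozygous lenses (0 to 2 at 0 counts) against 0.667 to 2.42 CPM in WT (3 to 4 at 0 counts). Erythrocyte markers had a median of 0.96 with 0 of 5 tested called, and summed to 49.2 to 178 CPM against 15.6 to 146 CPM. Sums of vessel and mesenchyme markers (145 to 194 CPM against 161 to 189 CPM) and of lens epithelium markers (60.3 to 68.1 CPM against 51.7 to 78.7 CPM) overlapped as well, with 0 called. Their part in the result for Hspa8 was not tested.

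The other 7 tested members had log2 fold changes of -0.03 to 0.34 between Cryab-R120G-homo and WT, none called. Dnajb1, lower in the Cryaa line, was at 424, 382 and 309 CPM in Cryab-WT and at 314, 457 and 342 CPM in Cryab-R120G-homo (log2 fold change -0.00, SE 0.30, interval -0.62 to 0.62). Hsp90ab1 was at 1080, 1016 and 829 CPM and at 870, 1055 and 942 CPM. Hsph1 was at 4.16 to 6.94 CPM in WT and within 5.77 to 6.00 CPM in the homozygous lenses. For these genes the homozygous libraries lay among or close to the WT libraries. The widest of the 7 was Hspd1, at 18.9, 34.0 and 22.1 CPM in WT and 30.1, 41.0 and 24.2 CPM in the homozygous lenses (0.34, SE 0.32), while its partner Hspe1 was at 44.1 to 58.9 CPM and 45.4 to 68.8 CPM (0.06, SE 0.24).

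In Cryab-R120G-het lenses 0 of 8 members were called (edgeR), none had an unadjusted p under 0.05, and 0.00717% of all genes were called. DESeq2 called 0 members as well. Hspa8 had the largest difference from WT, a log2 fold change of -0.50 with an interval of -1.07 to 0.07. The groups overlapped for each of the 8 members, and did not overlap for 10.1% of all genes. Between the homozygous and heterozygous lenses 0% of all genes and 0 members were called by edgeR and 0 members by DESeq2. The unadjusted p was under 0.05 for 274 genes and for 1 member, Hspa8, which was 2.54-fold lower in the homozygous lenses (log2 fold change -1.34, SE 0.28, unadjusted p = 8.79e-05, edgeR FDR = 1). Hspa8 (all lower) and Hsph1 (all higher) did not overlap between these groups, nor did 6.86% of all genes. The median log2 fold change of the members against WT was -0.12 in the heterozygous and 0.04 in the homozygous lenses, against 0.00 over all genes in both.

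The difference between the lines in the effect of 2 mutated copies was tested directly. It passed for the same pair of genes, with 2.91% of all genes called (1.75% higher and 1.16% lower in the Cryab line). For Dnajb1 the effect was higher in the Cryab line by 1.85 on the log2 scale (SE 0.43, edgeR FDR = 0.0174), and for Hspa8 it was lower in the Cryab line (log2 difference -1.72, SE 0.39, FDR = 0.0168). The 6 other tested members did not pass. With scaling by library totals alone neither gene passed (Dnajb1 FDR = 0.0596, Hspa8 FDR = 0.0545). The test of Dnajb1 also missed without Cryaa-R49C-homo replicate 2 (1.65, FDR = 0.0529), Cryab-WT replicate 3 (1.74, FDR = 0.0604) or Cryab-R120G-homo replicate 2 (1.67, FDR = 0.0577). Gene and age cannot be told apart in this comparison.

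The ratio of Dnajb1 to Hspa8 counts within a library needs no scaling between libraries. The pair was chosen after its values were seen, so the ratio is a description. It was 1.39 ± 0.158 (SD, n = 3) in Cryaa-WT, 1.34 ± 0.109 in Cryaa-R49C-het and 0.412 ± 0.179 in Cryaa-R49C-homo. In the 14-day lenses it was 2.01 ± 0.738 in Cryab-WT, 2.47 ± 0.208 in Cryab-R120G-het and 7.82 ± 3.60 in Cryab-R120G-homo. The homozygous libraries thus held fewer reads of this J gene per Hspa8 read in the Cryaa line (0.268 to 0.613) and more in the Cryab line (4.24 to 11.4), with no overlap with WT in either. By contrast, the ratio of Hsp90aa1 to Hsp90ab1 had group means of 0.0462 to 0.0655, and only Cryaa-R49C-homo replicate 2 (0.0846) and 3 (0.0639) were above the other 16 libraries.

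**Figure D3:**
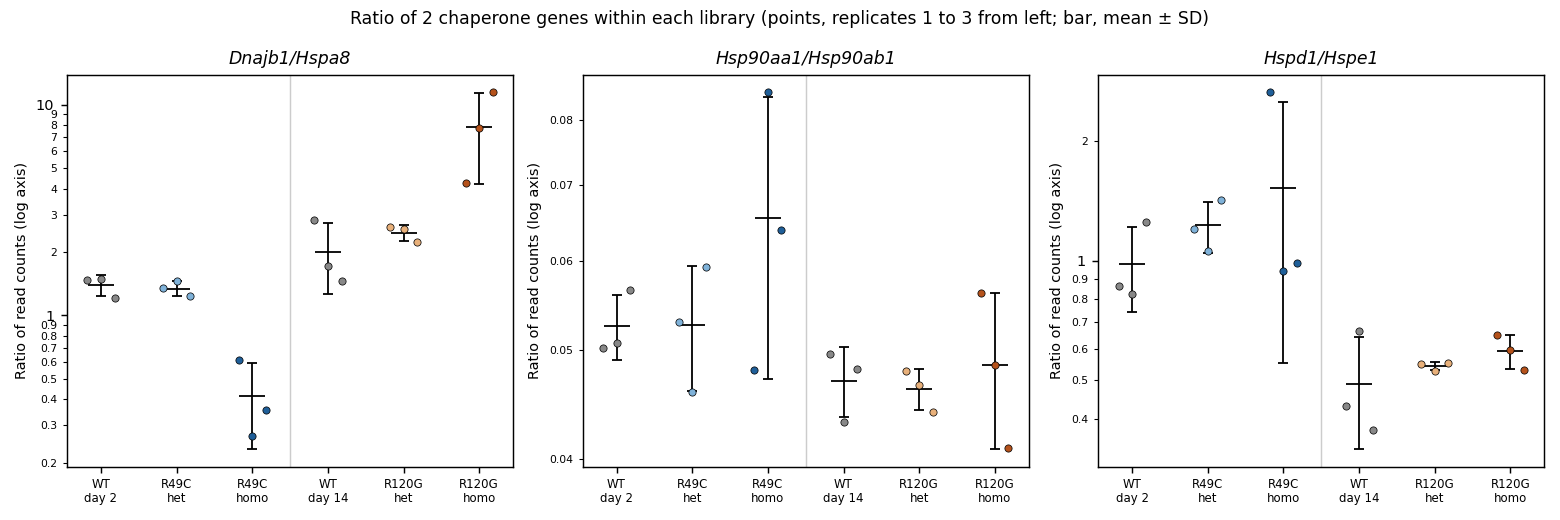
Ratio of the read counts of 2 members within each library (y axis, log scale) in the 6 groups (x axis), for Dnajb1 to Hspa8, Hsp90aa1 to Hsp90ab1 and Hspd1 to Hspe1. Points are libraries and bars the mean ± SD of 3; in the first panel Cryaa-R49C-homo lies at 0.268 to 0.613 and Cryab-R120G-homo at 4.24 to 11.4, against 1.21 to 2.85 in the WT libraries.

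Between the WT groups, 5 members were higher at 14 days than at 2 days, and 0 were lower. These groups differ in line and set of libraries as well as in age, and the parts of these cannot be told apart. A rise here means only a higher level in the 14-day group. Dnajb1 rose from 129 ± 25.8 to 372 ± 58.3 CPM (SD, n = 3), a log2 fold change of 1.52 (SE 0.31, edgeR FDR = 0.00108). Bag3 rose from 1.59 ± 0.307 to 4.11 ± 0.576 CPM (1.36, FDR = 0.00228) and Hspe1 from 22.9 ± 5.71 to 51.4 ± 7.43 CPM (1.17, FDR = 0.00129). Hspa8 rose from 92.2 ± 8.62 to 194 ± 39.7 CPM (1.08, FDR = 0.00753) and Hsp90ab1 from 563 ± 89.3 to 975 ± 131 CPM (0.79, FDR = 0.00883). Each of these 5 had all 14-day libraries above all 2-day ones. Of all genes, 23.2% were called, 11.7% higher, and 43.2% did not overlap.

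Markers of several cell types moved in the same comparison. Of the fibre markers, 7 of 10 tested were higher at 14 days and 0 lower. Photoreceptor markers were higher for 6 of 10 and lower for 0, with a median log2 fold change of 4.0 and sums of 10.5 to 43.3 CPM at 2 days and 26.0 to 905 CPM at 14 days. All 9 macrophage markers were lower (median -3.80), with sums of 7.09 to 16.9 CPM and 0.667 to 2.42 CPM, and 3 to 4 of them were at 0 counts in the 14-day libraries. Of the pigment epithelium and melanocyte markers 5 of 9 tested were lower and 0 higher, and of the lens epithelium markers 2 of 5 were lower and 0 higher. Vessel and mesenchyme markers were lower for 5 of 9 and higher for 1, although their sum was higher at 14 days (161 to 189 CPM against 35.4 to 53.2 CPM). None of the 5 erythrocyte markers tested was called. Immediate-early genes were higher for 6 of 12, with sums of 30.1, 31.8 and 2131 CPM at 14 days and 32.6 to 53.2 CPM at 2 days. The part of these differences in the rise of the members was not tested.

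Hsp90aa1 was close to the threshold (0.64, SE 0.23, FDR = 0.0506). Hspd1 (0.22, SE 0.32, FDR = 0.656) and Hsph1 (-0.10, SE 0.23, FDR = 0.800) were not called, so Hspe1 rose while its partner Hspd1 was not shown to. These rises are relative to the typical gene. When libraries were scaled by their totals alone, the median gene had a log2 fold change of -1.61, and 4 members were called lower and 0 higher. These were Hsph1 (log2 fold change -1.64), Hspd1 (-1.32), Hsp90aa1 (-0.90) and Hsp90ab1 (-0.73). Hspa8 (-0.46), Hspe1 (-0.33), Bag3 (-0.18) and Dnajb1 (0.02) were not called under this scaling.

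The inducible HSP70 genes were almost silent. Counts of Hspa1a and Hspa1b together were 1 to 9 per library in 17 of the 18 libraries (0.0652 to 0.524 CPM), including all mutant libraries. In Cryab-WT replicate 1 there were 33 counts of Hspa1a and 11 of Hspa1b, 44 in all (4.85 CPM). Counts below 3 are at the floor. The same library held 7803 counts of Fos against 4 to 876 elsewhere, and 2612 counts of Egr1 against 13 to 303 elsewhere. It held 872 counts of Fosb against 0 to 92 and 1231 of Atf3 against 1 to 578. Fos, Fosb, Egr1 and Atf3 encode transcription factors that cells induce within minutes of a stimulus.

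In that library, Hsp90aa1 (53.5 CPM), Hsp90ab1 (1080 CPM) and Hsph1 (6.94 CPM) were the highest of the Cryab line, where the other 8 libraries had 37.6 to 51.2, 808 to 1055 and 4.16 to 6.00 CPM. Hspd1 (18.9 CPM against 22.1 to 41.0 CPM) and Hspe1 (44.1 CPM against 45.4 to 68.8 CPM) were the lowest of the line, and Hspa8 (149 CPM) and Bag3 (3.64 CPM) the lowest of the Cryab-WT group. The library was thus not high for every heat shock gene. When genes with low counts were kept in the fit, Hspa1a was called higher in 14-day than in 2-day WT lenses (FDR = 0.000702) and lower in Cryab-R120G-het than in WT (FDR = 0.0225), while the other libraries of the Cryab-WT group held 3 and 1 counts of it. In the same fit Hspa1b, with 0 counts in those libraries, was called higher at 14 days (FDR = 0.0251). The likelihood-ratio test with robust dispersions on the same genes called none of these (FDR = 0.482, 0.858 and 0.384).

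**Figure D4:**
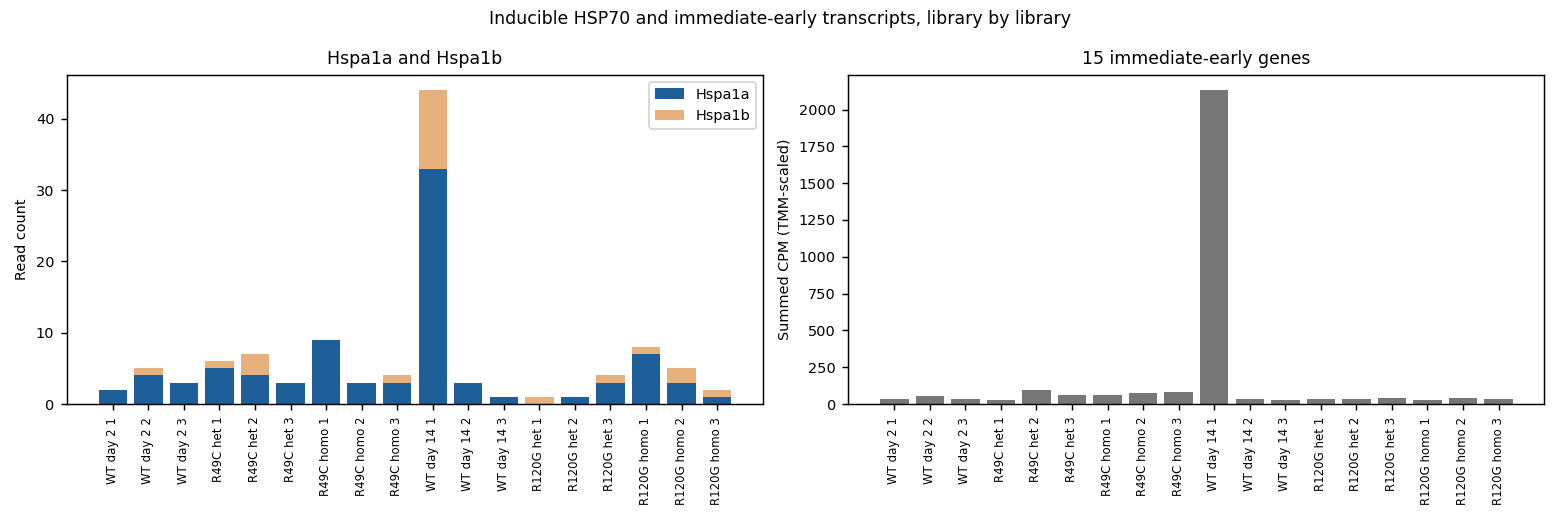
Read counts of Hspa1a and Hspa1b (left, stacked bars) and summed CPM of 15 immediate-early genes (right, TMM-scaled) in each of the 18 libraries (x axis, group and replicate number; WT day 14 1 is Cryab-WT replicate 1). That library reaches 44 counts and 2131 CPM, and the other 17 have 1 to 9 counts and 28.2 to 96.3 CPM.

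Genes around the members were followed with fixed lists. Of all genes tested, 4.87% were higher and 4.91% lower in Cryaa-R49C-homo than in WT, and in lists of 5 to 20 genes these shares come to about 1 gene or less in each direction. Among 17 other known HSF1 targets, 3 were lower in Cryaa-R49C-homo than in WT, and the median log2 fold change was -0.19 against 0.00 over all genes. The small heat shock protein gene Hspb1 fell the most, from 13.4, 19.3 and 5.33 CPM in WT to 0.132, 0.220 and 0.532 CPM (log2 fold change -5.51, SE 0.53, edgeR FDR = 1.07e-06), which is 6 to 14 counts per homozygous library. The J protein gene Dnaja4 fell from 0.666 to 0.979 CPM in WT to 0.0943 to 0.154 CPM (-2.56, SE 0.41, FDR = 0.000236). Hspa4l, of the HSP110 family, was lower (-0.58, FDR = 0.0468), a call that held in 3 of 13 alternative fits and missed with the replicate block (FDR = 0.0539).

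Of 20 partners of HSP70, 0 were higher and 3 lower in Cryaa-R49C-homo, with a median of 0.10. Besides Dnaja4 and Hspa4l, which both lists hold, this was Dnajb2, a J protein gene, which fell from 31.1, 36.0 and 19.7 CPM to 8.43, 10.7 and 8.06 CPM (log2 fold change -1.67, SE 0.25, FDR = 8.68e-05). Among 13 cochaperones of HSP90, 1 was lower, the phosphatase gene Ppp5c (-0.73, FDR = 0.0458; called in 4 of 13 alternative fits), with a median of -0.04. Of 10 genes of mitochondrial protein quality control, 2 were higher and 0 lower, with a median of 0.34: Hspa9, the mitochondrial HSP70, at 33.2 to 41.1 CPM in WT and 60.04 to 119.7 CPM in the homozygous lenses (1.19, SE 0.28, FDR = 0.00732), and Hscb, its J protein for iron-sulfur clusters (1.09, SE 0.27, FDR = 0.0102).

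Of 5 heat shock factors and their regulators, 1 was lower in Cryaa-R49C-homo. Hsf4 was at 62.9, 69.4 and 43.1 CPM in WT and at 35.7, 30.3 and 39.3 CPM in the homozygous lenses (log2 fold change -0.74, SE 0.22, FDR = 0.0333), and the call held in 6 of 13 alternative fits. Hsf1 (-0.58, FDR = 0.185) and Hsf2 (-0.48, FDR = 0.348) were not called. The mutated gene Cryaa had a log2 fold change of -0.76 (FDR = 0.150), and passed in 3 of 13 alternative fits. These were the fit without homozygous replicate 1 (-1.39, FDR = 0.000726), the likelihood-ratio test on all genes with a count (-1.18, FDR = 0.000401) and the fit with the replicate number as a block (-0.85, FDR = 0.0436). Cryab had a log2 fold change of -0.33 (FDR = 0.489). In Cryab-R120G-homo and in both heterozygous groups, 0 genes of these lists and of the immediate-early list, together 67 tested genes, were called against WT by edgeR. An unadjusted p under 0.05 was found for 13 of them in Cryab-R120G-homo, 12 in Cryab-R120G-het and 1 in Cryaa-R49C-het, and DESeq2 called 2 (Nr4a1 and Egr1), 1 (Egr1) and 0, all immediate-early genes that are high in Cryab-WT replicate 1. At 14 days WT lenses had 11 of the 17 other HSF1 targets higher than at 2 days and 1 lower, where 11.7% of all genes were higher and 11.5% lower. Higher were also 6 of the 20 HSP70 partners, 3 of the 13 HSP90 cochaperones, 2 of the 10 genes of mitochondrial protein quality control and 2 of the 5 heat shock factors and regulators, with 0 lower in each of these lists.

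With the mean of each line removed, single members correlated with the mean of the other 9 over the 18 libraries at a Pearson r of 0.06 (Hspd1) to 0.77 (Hsp90ab1), with 0.11 for Hspa8 and 0.24 for Dnajb1. The genes outside the set most like the mean of all 10 were Gnb2l1 (0.79), which encodes the ribosomal scaffold RACK1, Arl3 and Cyr61 (0.78 each) and Trappc6a (0.76). Flywch1 (0.74), Pphln1 (0.71), Cryab, 4933406P04Rik, Rpl10 and Cox8a (0.70 each) came next. The points share libraries, depth and scaling, and these values are descriptions.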

How the data were processed

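Whole-lens RNA of 18 libraries was sequenced with single 50-base reads after poly-A library preparation. The authors converted the base calls with CASAVA 1.8, aligned reads to GRCm38 with STAR 2.0.4b and counted them per Ensembl gene with featureCounts 1.4.5 (Subread), keeping uniquely aligned, unambiguous reads; the strand setting is not given in the sources used here. The deposited counts used here are raw read counts; other deposited tables hold normalized values and were not used. Groups were taken from sample titles, with which the genotype field of the 6 Cryab mutant libraries conflicts.

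Counts were fitted with edgeR 4.0.16 (R 4.3.3, limma 3.58.1): TMM, 13938 genes kept by filterByExpr, robust quasi-likelihood test, 1 model of 6 groups, Benjamini-Hochberg adjustment per comparison over all genes tested, threshold 0.05, called FDR. The filter was used because without it the prior degrees of freedom were infinite. The code of the fit was run on simulated counts with the same dispersion for every gene and no library standing apart. That run does not cover the spread of these libraries. Fold changes come from the fit, CPM from TMM-scaled totals, and log2 CPM of the correlations used a prior count of 2. The floor was 3 counts, which covers counting error only. Library totals of 14272174 to 29639719 set the precision. Alternatives were DESeq2 1.42.0, the edgeR likelihood-ratio test with robust dispersions on all genes with a count (test and filter changed together), the main test without the filter, other scalings, 1 line only, a replicate block and leaving out each library.

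The members and lists were chosen with earlier results of these data known. The result of 1 gene in the list of other HSF1 targets is not reported here. All members were named, and from each other list at most the 4 largest changes that passed in a contrast with WT, besides Hsf1, Hsf2, Hsf4, Hspb1, Cryaa, Cryab, 4 immediate-early genes, and the 10 genes most like the members' mean. The deviations of same-numbered libraries correlated above 0.1 in all 3 pairs only for Cryab-R120G-homo and Cryab-WT (r = 0.277, 0.176 and 0.156), so the pairing there comes from the data and not from the labels.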

Additional observations from a re-analysis of the deposited data

Results flagged for a closer look

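The effect of the homozygous mutation differed between the lines for 2 of the 8 tested members, by the test of the difference itself. For Dnajb1 it was higher in the Cryab line by 1.85 on the log2 scale (edgeR FDR = 0.0174): the log2 fold change from WT was -1.86 in the Cryaa line and -0.00 in the Cryab line. For Hspa8 the difference was -1.72 (FDR = 0.0168), from -0.13 in the Cryaa line and -1.84 in the Cryab line. The lines also differ in age.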

How the results depend on the processing

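With scaling by library totals alone, 3 members were called in Cryaa-R49C-homo against WT (Hsph1 at a log2 fold change of 0.92 and Hsp90aa1 at 0.81 besides Dnajb1), 0 in Cryab-R120G-homo against WT and 0 in the test between the lines. This setting also turned the sign of 6 members between the WT groups: Hspa8 (-0.46), Hsp90aa1 (-0.90), Hsp90ab1 (-0.73), Hspd1 (-1.32), Hspe1 (-0.33) and Bag3 (-0.18). It moved the median gene by 0.41 and 0.37 in the homozygous lenses of the Cryaa and Cryab lines. In a fit of 1 line only, 0 members were called in Cryab-R120G-homo against WT. Keeping every gene with a count gave 1 member in Cryab-R120G-het against WT (Hspa1a, lower) and 1 in Cryab-R120G-homo against het (Hspa8), where the unfiltered likelihood-ratio test, which changes both the test and the filter, also gave 1. Between the WT groups, DESeq2, the unfiltered likelihood-ratio test, the other scaling and the block called Hsp90aa1 as well, and Hsp90ab1 missed without the filter (FDR = 0.0518) or without Cryaa-WT replicate 3 (FDR = 0.0532).

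Leaving out 1 library gave 0 to 0 members in each heterozygous group against WT, 1 to 3 in Cryaa-R49C-homo against WT and against het, 0 to 1 in Cryab-R120G-homo against WT, 0 to 0 against het, 4 to 5 between the WT groups and 1 to 2 in the test between the lines. The counts of 3 came without Cryaa-R49C-homo replicate 1. The replicate block changed no other member's call. Of the members' values under alternatives, 831 kept their side of the threshold and, where called, their direction, 13 passed it newly, 14 no longer passed, and 6 turned sign where either fit called them. Among the 831 were 76 values, called in neither fit, whose sign turned.

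Counts of all genes called moved more. Cryaa-R49C-homo against WT had 1364, and 2678 with the unfiltered likelihood-ratio test and 2138 by library totals (1884 higher, 254 lower). Against het there were 1160, and 2844 and 684 (unfiltered likelihood-ratio test, 1 line). Leaving out 1 library gave 746 to 3085 against WT, 460 to 4102 against het and 252 to 1812 in the test between the lines, each highest without Cryaa-R49C-homo replicate 1. It gave 1 to 13 in Cryab-R120G-homo against WT (13 without Cryab-WT replicate 1), 1809 to 3192 between the WT groups (1809 without Cryaa-WT replicate 3), 0 to 2 in Cryaa-R49C-het and 0 to 3 in Cryab-R120G-het. Cryab-R120G-homo against WT had 7, and 20 with DESeq2, 178 with the unfiltered likelihood-ratio test, 302 with the main test without the filter and 18 with the block. Between the WT groups library totals gave 11596 in place of 3237 (157 higher, 11439 lower). The test between the lines had 406, and 626, 1249, 798 and 255 (DESeq2, unfiltered likelihood-ratio test, no filter, library totals). Cryaa-R49C-het had 1 gene, and 2, 9 and 17 with the first 3 of these and 0 with the other scaling or 1 line. Cryab-R120G-het had 1, and 12, 25 and 140, and 3 with the block. Cryab-R120G-homo against het had 0, and 2 and 15 with the unfiltered likelihood-ratio test and without the filter. The alternatives for genes outside the members were added after their values were seen: Hspb1, Dnaja4, Dnajb2 and Hspa9 were called in Cryaa-R49C-homo in 13 of 13, Hscb in 12. Low counts limit Hspa1a and Hspa1b. Each library pools several lenses, so the p-values measure the spread between pools.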
